A study of Rattus norvegicus with 10 samples.

Results

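Proline-rich proteins and the precursors of opiorphin-like peptides are small secreted products of salivary acinar and duct cells. Of 8 genes listed for these families, Prpmp5, Prb1, Prb3, Prh1, Oprpn, Smr3a, Smr3b and Vcsa1, 6 had a probe that could be tested, out of 14711 genes tested in all. A gene was matched through the RefSeq accession of its probe. By that match each of the 6 had 1 probe, and Prb1 and Vcsa1 had none. Gene names in the scanner files were not used in the match, which left 12362 of 30367 probes without a gene. In the RefSeq gene table of assembly GRCr8, Vcsa1 is an older name of Smr3b, so the Smr3b probe carries its values. Prb1 is also an older name of Prpmp5 there, and no probe carried the accession of the separate gene Prb1.

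The data were 10 one-colour Agilent gene expression arrays of the submandibular gland, 1 array per rat. They compared 5 spontaneously hypertensive rats (SHR) with 5 Wistar Kyoto rats (WKY), which the study used as controls; all were males aged 14 weeks, and the WKY rats had been matched to SHR for age and weight. SHR is an inbred strain that becomes hypertensive with age, so the comparison carries every inherited difference between the strains and not blood pressure alone. Rats are named here by strain and the 2 numbers of their title (SHR 2-1), whose meaning the labels do not give.

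Proline-rich proteins are built of repeats dense in proline, glutamine and glycine. They coat the mouth, bind tannins from plant food, and are known in rat and mouse salivary glands for induction through beta-adrenergic receptors and cAMP. The other group begins with Smr3b, the rat prohormone known as SMR1, which is made in the submandibular gland under androgen control and is cut to release sialorphin, an inhibitor of the peptidase neprilysin. In human saliva the related peptide opiorphin, which inhibits neprilysin and aminopeptidase N and so prolongs the life of enkephalins, is cut from the product of OPRPN.

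Prpmp5 was lower in SHR by 3.31-fold, Prb3 was lower by 1.56-fold and Oprpn was higher by 1.53-fold. Prh1, Smr3a and Smr3b had positive differences that did not pass the threshold, an adjusted p of 0.05 in limma with Benjamini-Hochberg adjustment over all genes. Thus 3 of the 6 members passed, against 4.36% of all genes tested. Of these, 1 was higher in SHR, against 1.51% of all genes, and 2 were lower, against 2.85%. The strains did not overlap for 3 members (Prpmp5, Prb3 and Prh1), against 7.25% of all genes. The members were listed with results of these data known, so these shares describe the 6 genes and no test was made on them.

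Values below are log2 of the processed signal minus the 75th percentile of the same array, unless a signal in scanner units is named. All 6 probes were well above background on all 10 arrays, and no spot was saturated. Arrays differed in brightness, with a 75th percentile of 333 to 648 units, the lowest in SHR 3-3, and 94.8% to 97.7% of probes were well above background. Scan times put the arrays in 3 groups, called slides here. Whether each group was 1 physical slide was not tested. Slide 1 held 4 SHR arrays (2-3, 3-1, 3-3 and 3-4), slide 2 held SHR 2-1 with WKY 1-5, 4-1 and 4-2, and slide 3 held WKY 1-2 and 1-3. Strains can therefore be set side by side within slide 2 alone, with 1 SHR array against 3 WKY arrays. With a single SHR array that difference shows no spread of SHR, so for each gene it is given as a value without a test. A fit with slide as a block takes its strain difference from slide 2, since slides 1 and 3 each hold 1 strain. Its adjusted p-values thus concern the same difference and depend on the same SHR array.

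The genes lie in clusters on 2 chromosomes, in which copies of a family stand beside each other. Prb1, Prpmp5, Prb3 and Prh1 are on chromosome 4, and Oprpn, Smr3b and Smr3a on chromosome 14. The 150 bases before the annotated start of the 3 measured proline-rich genes are given. They were chosen because the strain difference was negative for 2 of these related genes and positive, without passing, for Prh1. The sequences are from RefSeq, assembly GRCr8, 5′ to 3′ on the gene's own strand. Each is a reference sequence and was not read from the SHR or WKY rats, so it cannot show a difference between the strains. Capitals mark the 8-base run AGTCCCAA and the TATA box letters TATAA. The regions are chr4:167271667-167271816 on the minus strand for Prpmp5, chr4:167295684-167295833 on the plus strand for Prb3 and chr4:168275002-168275151 on the plus strand for Prh1.
Prpmp5: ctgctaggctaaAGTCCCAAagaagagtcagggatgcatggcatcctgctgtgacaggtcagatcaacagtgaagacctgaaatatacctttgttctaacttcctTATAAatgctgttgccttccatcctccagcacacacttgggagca
Prb3: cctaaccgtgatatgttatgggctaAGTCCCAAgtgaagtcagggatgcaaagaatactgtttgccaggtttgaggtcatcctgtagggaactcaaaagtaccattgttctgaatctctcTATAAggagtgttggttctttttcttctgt
Prh1: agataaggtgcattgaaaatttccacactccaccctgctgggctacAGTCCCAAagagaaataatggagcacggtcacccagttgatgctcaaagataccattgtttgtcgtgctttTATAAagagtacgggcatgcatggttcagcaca

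AGTCCCAA was picked as the longest run common to the 250 bases before Prpmp5, Prb1, Prb3 and Prh1. Its presence before these 4 genes was therefore set by that choice and is no test of a shared site. On both strands the run was found in 0.801% of 33469 rat promoters over the same 250 bases. Of the other genes near the chromosome 4 cluster, Prr4, a further proline-rich protein gene, held it. Aligned over 250 bases, the promoters of Prpmp5 and Prb1 were 75.4% identical and had a run of 38 bases in common. Prpmp5 and Prb3 were 57.3% identical there, and Prpmp5 and Prh1 53.8%. Such copies can share probe sequence too, and which copies each probe binds was not tested.

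The promoters on chromosome 14 are given in the same way, because Smr3b and Smr3a are near copies and Oprpn beside them is not. Capitals in Smr3b and Smr3a mark a run of 23 bases common to both and the letters TATAA. In Oprpn they mark AGAACA and its reverse complement TGTTCT, the core letters of sites bound by androgen and glucocorticoid receptors. The regions, all on the minus strand, are chr14:20001590-20001739 for Oprpn, chr14:20072521-20072670 for Smr3b and chr14:20338821-20338970 for Smr3a.
Oprpn: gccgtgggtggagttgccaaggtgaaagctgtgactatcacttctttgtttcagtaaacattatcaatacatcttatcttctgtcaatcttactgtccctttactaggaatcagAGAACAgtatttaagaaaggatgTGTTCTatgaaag
Smr3b: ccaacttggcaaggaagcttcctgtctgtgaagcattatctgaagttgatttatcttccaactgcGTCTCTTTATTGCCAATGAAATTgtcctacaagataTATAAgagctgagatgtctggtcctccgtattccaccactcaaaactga
Smr3a: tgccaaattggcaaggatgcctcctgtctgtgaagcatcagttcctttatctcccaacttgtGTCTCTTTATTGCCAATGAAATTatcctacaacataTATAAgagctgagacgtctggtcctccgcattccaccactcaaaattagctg

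Smr3b and Smr3a were 82.9% identical over 250 bases. Their common run was picked as the longest that both hold. It was found in 4 of the 33469 promoters, those of Smr3b, Smr3a, Vcsa2 and a gene of chromosome 14 listed under a LOC number. It contains CCAAT, the letters of a CCAAT box. Of the receptor letters, AGAACA or TGTTCT was found before Prpmp5, Prb1, Prb3 and Oprpn, and in 17.5% of all promoters. TATAA was found before all 7 genes and in 24% of promoters, and CCAAT before Smr3a and Smr3b and in 34%. In Oprpn the TATAA matches began only at −248 and −247, while each of the other genes had a match that began between −52 and −30. The full cAMP response element letters TGACGTCA were found before 0 of the 7 genes and in 1.59% of promoters. Both strands were searched, CCAAT lies within the 23-base run, and a match of letters is not evidence of binding.

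**Figure D1:**
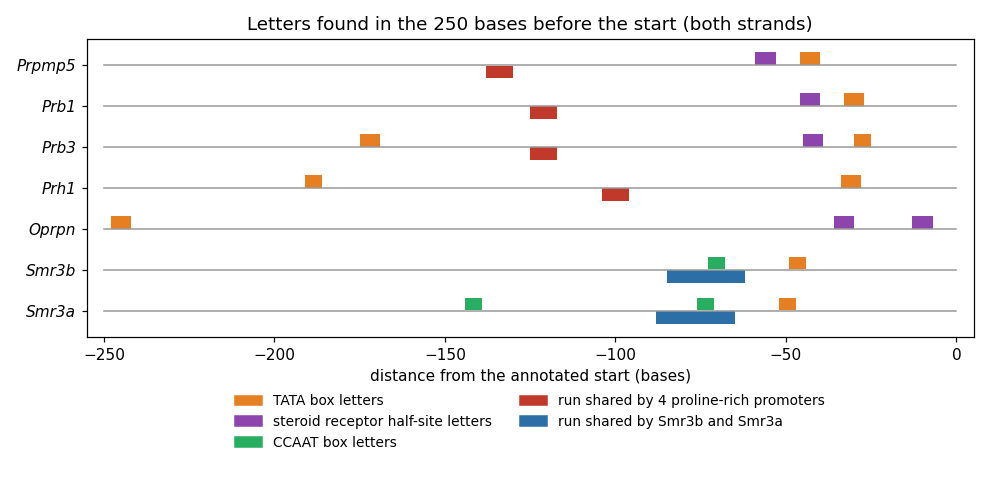
Letters found in the 250 bases before the annotated start of 7 genes, on either strand, by distance from the start in bases. Coloured bars are matches: the 8-base run begins between positions −138 and −104 in the 4 proline-rich genes, and the 23-base run at −88 in Smr3a and −85 in Smr3b.

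Prpmp5 encodes a salivary proline-rich protein. Its log2 level was −2.07, −2.58, −2.27, −1.63 and −2.22 in SHR 2-1, 2-3, 3-1, 3-3 and 3-4, against −0.60, −0.29, −0.42, −0.35 and −0.46 in WKY 1-2, 1-3, 1-5, 4-1 and 4-2. Every SHR array was below every WKY array, and SHR 3-3 was the highest of the SHR arrays. In scanner units the signal was 94.3 to 135 in SHR and 331 to 457 in WKY. The mean was −2.15 ± 0.35 in SHR and −0.42 ± 0.12 in WKY (SD, n = 5 each), a log2 difference of −1.73 ± 0.15 (SE; 95% interval −2.05 to −1.41; limma adjusted p = 2.58e-05). Within slide 2 the difference was −1.66. With slide as a block the difference was the same by construction and did not pass (limma adjusted p = 0.0613). In gland RNA, fewer cells of a type and less RNA per cell cannot be told apart.

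Prb3, whose human counterpart encodes a proline-rich glycoprotein of saliva, had a dim probe. Its signal was 29.9 to 47.7 units in SHR and 45.1 to 96.3 in WKY. Its log2 level was −3.65, −3.75, −3.83, −3.48 and −3.64 in SHR 2-1, 2-3, 3-1, 3-3 and 3-4, against −3.17, −3.26, −3.17, −2.91 and −2.62 in WKY 1-2, 1-3, 1-5, 4-1 and 4-2. The SHR arrays lay below all WKY arrays, and the WKY arrays spread more than the SHR arrays, with WKY 4-1 and 4-2 at the top. The mean was −3.67 ± 0.13 in SHR and −3.03 ± 0.26 in WKY (SD, n = 5 each), a difference of −0.64 ± 0.12 (SE; 95% interval −0.91 to −0.37; limma adjusted p = 0.0127). Within slide 2 the difference was −0.75, and with slide as a block it did not pass (limma adjusted p = 0.396). With normexp background correction and quantile normalization it was −0.27 and did not pass (limma adjusted p = 0.0578). That setting adds an offset of 50, within the range of this probe's signal, so the 2 sizes are not directly comparable.

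Prh1 is listed as Grpca too, the name of a glutamine- and glutamate-rich secretory protein of the rat submandibular gland. Its log2 level was 7.81, 7.78, 7.76, 8.78 and 8.04 in SHR 2-1, 2-3, 3-1, 3-3 and 3-4, against 7.66, 7.49, 7.76, 7.47 and 7.50 in WKY 1-2, 1-3, 1-5, 4-1 and 4-2. The SHR arrays were all above the WKY arrays, although SHR 3-1 and WKY 1-5 were equal to 2 decimals, and SHR 3-3 stood far above the other SHR arrays. The mean was 8.03 ± 0.43 in SHR and 7.57 ± 0.13 in WKY (SD, n = 5 each). The difference of 0.46 ± 0.18 (SE; 95% interval 0.08 to 0.84) did not pass (limma adjusted p = 0.163). It was 0.27 without SHR 3-3, 0.24 within slide 2 and 0.0008 in the authors' values.

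Of the 3 proline-rich members, 2 were thus lower in SHR and Prh1 did not pass. Prp2, Prp25l1 and Prp15, the family genes next to Prb3 on chromosome 4, did not pass. Prp2 was at 0.26 in SHR and 0.28 in WKY (difference −0.02 ± 0.13, SE, limma adjusted p = 0.957), and Prp15 differed by 0.08 ± 0.13 (SE). Prp25l1 was at 7.54 in SHR and 7.05 in WKY, a difference of 0.49 ± 0.15 (SE; limma adjusted p = 0.092).

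Oprpn is also named Muc10 in rat, a mucin of the submandibular gland, and is the counterpart of the human opiorphin gene. Its signal was 174543 to 228985 units in SHR and 104053 to 172117 in WKY. Its log2 level was 8.50, 8.48, 8.14, 9.12 and 8.78 in SHR 2-1, 2-3, 3-1, 3-3 and 3-4, against 7.93, 7.91, 8.16, 7.99 and 7.98 in WKY 1-2, 1-3, 1-5, 4-1 and 4-2. The strains overlapped at SHR 3-1 and WKY 1-5, while the other 4 SHR arrays lay above every WKY array. The mean was 8.60 ± 0.37 in SHR and 7.99 ± 0.10 in WKY (SD, n = 5 each), a difference of 0.61 ± 0.15 (SE; 95% interval 0.28 to 0.94; limma adjusted p = 0.0434).

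That call was close to the threshold. It was lost in 8 of the 10 fits that left out 1 array, those without SHR 2-1, SHR 2-3, SHR 3-4 or any 1 of the WKY arrays, with adjusted p up to 0.106. It held without SHR 3-1 and without SHR 3-3, where the difference was 0.48 (limma adjusted p = 0.0397). Within slide 2 the difference was 0.46, and with slide as a block the call was lost. Under quantile normalization it was 0.16 (limma adjusted p = 0.193), and in the authors' values also 0.16 (limma adjusted p = 0.178). By processed signal the probe ranked 1 or 2 among 30367 probes on all 5 SHR arrays and 2 to 33 on the WKY arrays. Quantile normalization gives a rank the same value on every array, so it bounds the top of the range. The authors' value was 17.38, the maximum of each column, on 4 SHR arrays, and 17.27 on SHR 3-4. These values do not follow the ranks above exactly, since SHR 3-1, 3-3 and 3-4 all had rank 2. Which signal the authors ranked is not known.

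Smr3b gives rise to sialorphin. Its log2 level was 7.97, 8.05, 7.94, 8.70 and 8.27 in SHR 2-1, 2-3, 3-1, 3-3 and 3-4, against 7.96, 7.74, 8.004, 7.79 and 7.73 in WKY 1-2, 1-3, 1-5, 4-1 and 4-2. SHR 3-3 and 3-4 were the highest arrays and the other SHR arrays were among or near the WKY arrays. The mean was 8.19 ± 0.32 in SHR and 7.85 ± 0.13 in WKY (SD, n = 5 each), and the difference of 0.34 ± 0.14 (SE; 95% interval 0.04 to 0.65) did not pass (limma adjusted p = 0.193). Its sign turned under quantile normalization and in the authors' values, −0.12 in both, and with normexp and quantile normalization, −0.10. Within slide 2 it was 0.12.

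Smr3a, also named Vcsb1, encodes a proline-rich relative of the prohormone. Its log2 level was 3.47, 3.18, 3.02, 3.39 and 3.43 in SHR 2-1, 2-3, 3-1, 3-3 and 3-4, against 2.46, 2.64, 2.97, 3.18 and 3.15 in WKY 1-2, 1-3, 1-5, 4-1 and 4-2. The strains overlapped, and the WKY arrays of slide 3, 1-2 and 1-3, were the lowest of all. The mean was 3.30 ± 0.19 in SHR and 2.88 ± 0.32 in WKY (SD, n = 5 each). The difference of 0.42 ± 0.15 (SE; 95% interval 0.09 to 0.75) did not pass (limma adjusted p = 0.138), and it was 0.37 within slide 2. It kept a positive sign in all 26 alternatives, from 0.31 to 0.49. Vcsa2, a related gene between Smr3b and Smr3a, was at 2.63 in SHR and 3.11 in WKY, a difference of −0.48 ± 0.14 (SE; limma adjusted p = 0.0782).

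**Figure D2:**
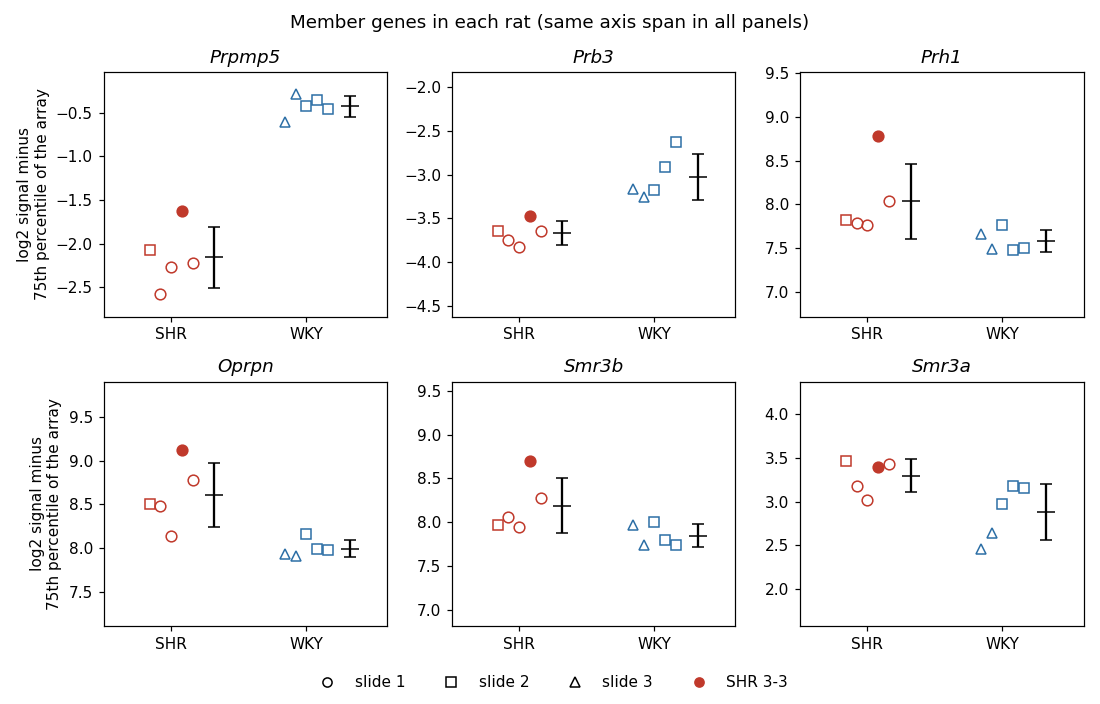
Log2 level of the 6 genes in each rat, with SHR left of WKY; each point is 1 array, its shape the slide, the filled point SHR 3-3, and the bar the mean ± SD of 5 arrays. Prpmp5 and Prb3 are below WKY in every SHR array, while Oprpn, Smr3b and Smr3a overlap between strains.

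Oprpn, Smr3b and Prh1 are among the 100 brightest genes on these arrays, and bright genes as a group sat above zero in this scaling. The median difference was 0.21 over the 100 brightest genes, 85 of which had a positive difference, and −0.02 over all genes. Among the 100, 3 were called higher in SHR and 0 lower. The differences of Oprpn (0.61), Prh1 (0.46) and Smr3b (0.34) are thus to be read beside 0.21, while Smr3a lay below the level of these genes and Prb3 and Prpmp5 far below it. The 100 genes include these 3 members and reach down to a level of 5.64. A running median by level rose from 0.13 at 5.63 to 0.19 at 6.04, where it ended. The median at the level of Oprpn, Prh1 and Smr3b was not measured and could exceed 0.21. Under cyclic loess, which levels out such a trend array by array, the difference was 0.34 for Oprpn (limma adjusted p = 0.0381), 0.21 for Prh1 and 0.08 for Smr3b (limma adjusted p = 0.507). The array SHR 3-3 had a median of 0.57 above the other SHR arrays over the 100 brightest genes, and 0.13 over all genes.

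**Figure D3:**
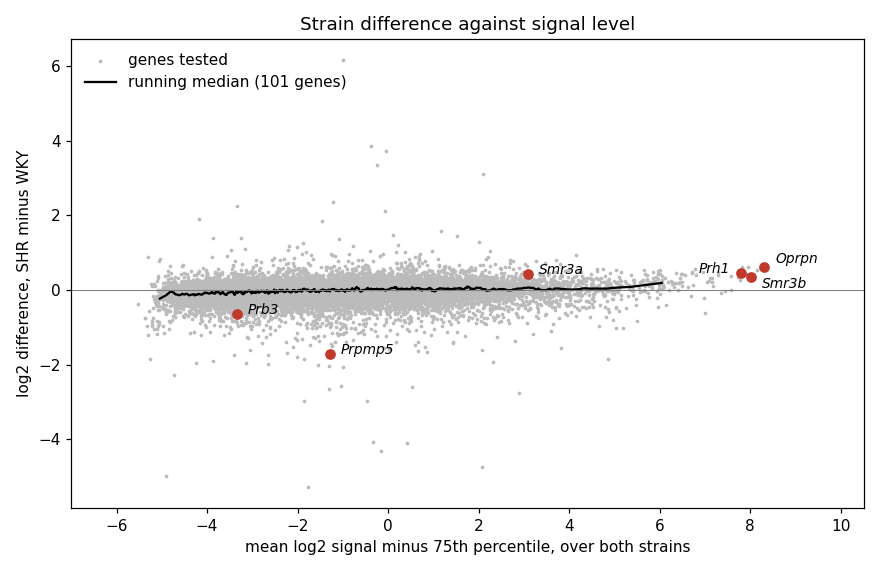
Log2 difference, SHR minus WKY, against the mean log2 level of all 14711 genes tested (grey), with a running median (black) and the 6 members (red). The running median climbs at the bright end and stops short of Oprpn, Prh1 and Smr3b, since it is drawn where its window is full; Prpmp5 and Prb3 lie below it.

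The same array bears on how the members varied among rats of 1 strain. SHR 3-3 exceeded the mean of the other SHR arrays by 0.93 for Prh1, 0.66 for Prpmp5, 0.64 for Oprpn, 0.64 for Smr3b, 0.24 for Prb3 and 0.12 for Smr3a. In the authors' values it was 0.28 for Prh1, 0.56 for Prpmp5, 0.03 for Oprpn, −0.05 for Smr3b, 0.19 for Prb3 and −0.06 for Smr3a, so the sign turned for Smr3b and Smr3a. The pooled spread within a strain was between 0.21 for Prb3 and 0.32 for Prh1, against a median of 0.18 over all genes.

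After the mean of each strain was subtracted, Prh1 and Smr3b had a correlation of 0.97 across the 10 arrays, and 0.94 without SHR 3-3. Oprpn with Smr3b had 0.90, and 0.73 without that array. Prb3 and Smr3a had 0.75, and 0.76 without it. Prpmp5 and Prh1 had 0.73 with SHR 3-3 and −0.06 without it, so that relation rested on 1 array. These correlations are descriptions over few arrays that share a scaling: the same deviations correlated with the log2 75th percentile of the array at −0.78 for Prpmp5, −0.73 for Prh1, −0.72 for Oprpn and −0.68 for Smr3b. Without SHR 3-3 these were −0.51, −0.28, −0.40 and −0.23 in the same order. Their part in the results was not tested.

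Among all genes tested, those with deviations most like a member's were the following, each over 10 arrays. They are the highest of very many correlations over few arrays, and how high unrelated genes would reach was not tested. Smr3b was closest to Kcnma1 (r = 0.99), a potassium channel gene, then Rpl13 and Rpl32 (0.98 each), both of ribosomal proteins. Prh1 was closest to the ribosomal protein genes Rpl36al1 and Rpl38 and to Kif13a, a kinesin gene (0.98 each). Oprpn was closest to Snrpg, Zfp592 and Epn3 (0.97 each), which encode a spliceosome protein, a zinc finger protein and an epsin. Prb3 was closest to Cfap45 (0.96), Cnp (0.94) and Fastkd2 (0.93). For Smr3a these were Krt28 (0.95), Msh4 (0.94) and Vch (0.94), and for Prpmp5 Or13c7d (0.96), Cldn22 (0.95) and Rhox3 (0.94). Without SHR 3-3, Cfap45 remained among the 3 closest to Prb3, and Krt28 and Vch among the 3 closest to Smr3a. All 3 changed for the other 4 members. The genes named for those 4 still had correlations without that array from 0.84 (Prh1 with Kif13a) to 0.95 (Smr3b with Rpl13).

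**Figure D4:**
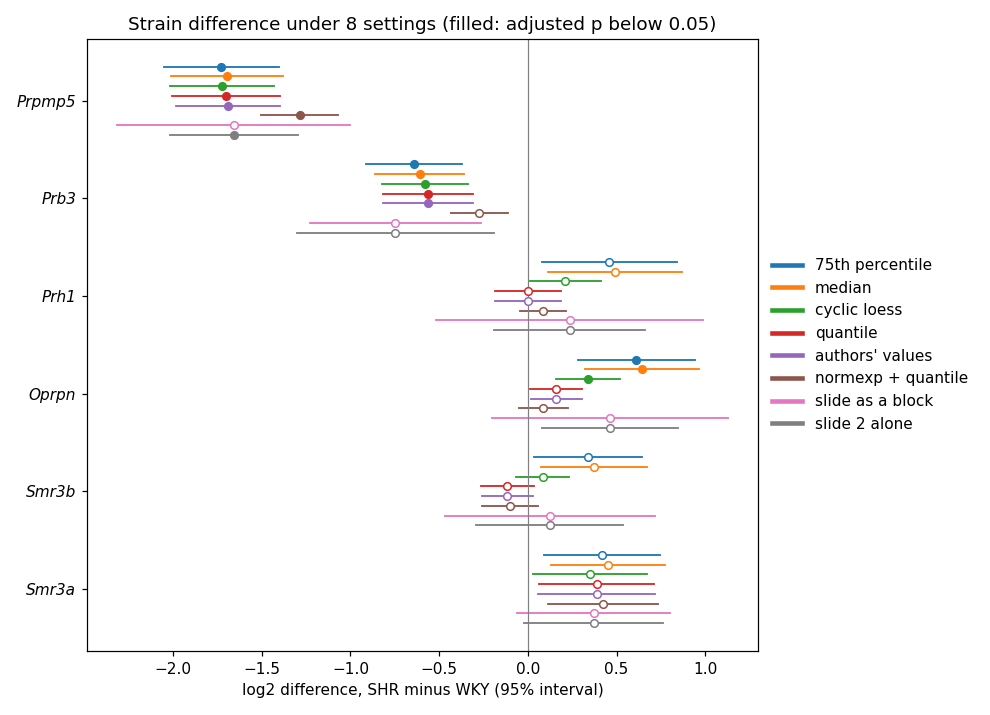
Log2 difference of each member, SHR minus WKY, with its 95% interval under 8 settings. Filled points have an adjusted p below 0.05. Slide 2 alone holds 1 SHR array, so its intervals and calls say little. A fit with slide as a block has the same difference by construction. Prpmp5 stays between −1.73 and −1.29 in these settings, while Oprpn lies between 0.09 and 0.64 and Smr3b crosses zero.

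Next to the members in RefSeq order, 19 other genes were tested, and 1 of them passed, against 4.36% of all genes. This was Tas2r103, a bitter taste receptor gene before Prh1, at −4.51 in SHR and −3.93 in WKY, a difference of −0.58 ± 0.14 (SE; limma adjusted p = 0.0422). Its probe was well above background on 4 of the 5 SHR arrays and all 5 WKY arrays. Around Prpmp5 the bitter taste receptor genes Tas2r105 and Tas2r114 differed by 0.02 ± 0.09 and −0.08 ± 0.20 (SE). Kap, the kidney androgen-regulated protein gene, beside Prh1, differed by −0.01 ± 0.08. On chromosome 14 the enamel matrix genes Ambn and Enam differed by 0.17 ± 0.10 and 0.05 ± 0.12, and Csn3, the kappa-casein gene, by 0.06 ± 0.14 (SE).

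**Figure D5:**
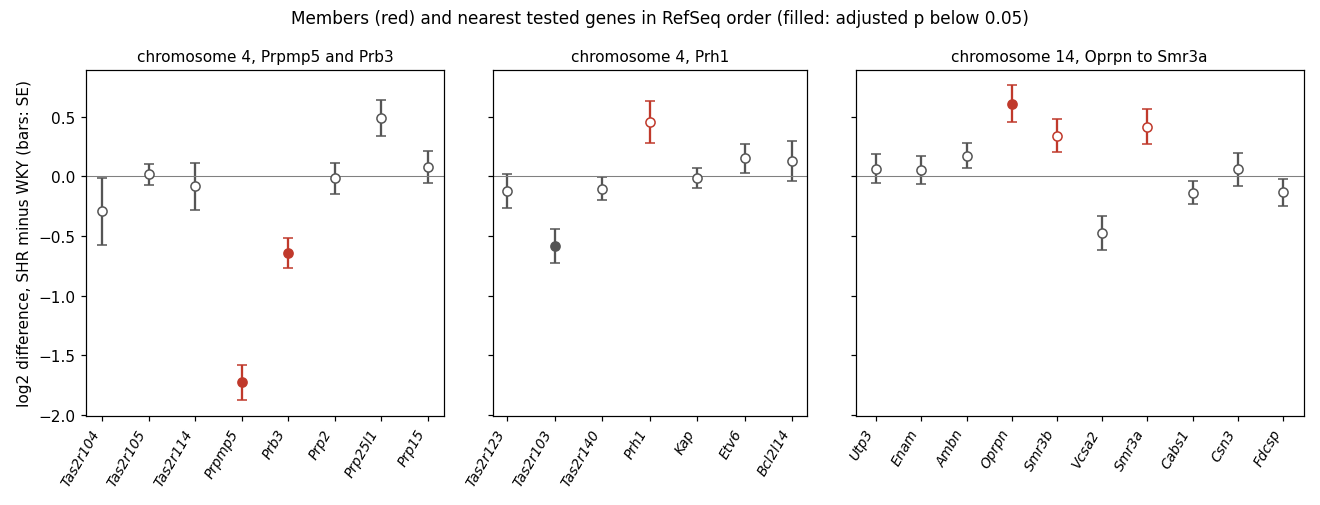
Log2 difference, SHR minus WKY, with its SE for members (red) and the nearest tested genes (grey) in the order of RefSeq on chromosomes 4 and 14; filled points have an adjusted p below 0.05. Prpmp5 and Prb3 stand below the other genes of their panel, and Tas2r103 is the 1 other gene that passed.

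Genes set around these families were read from lists chosen with results of these data in view. Counts that passed in these lists stand beside 4.36% of all genes, 1.51% higher and 2.85% lower. Of 19 tested genes of beta-adrenergic and cAMP signalling, 2 were higher in SHR, 1 was lower and 16 did not pass, with a median of −0.04. Prkar1a, a regulatory subunit of protein kinase A, rose by 0.38 ± 0.09 (SE; limma adjusted p = 0.0363), and Prkar2b, another such subunit, had a difference of −0.50 ± 0.09 (SE; limma adjusted p = 0.0073). Adrb1, the beta-1 receptor, was at −0.973 in SHR and −0.996 in WKY. Of 14 tested genes of androgen action 0 passed, with a median of 0.00; the largest differences were 0.89 ± 0.45 for Fkbp5 and −0.40 ± 0.14 (SE) for Fkbp4, both chaperones of steroid receptors.

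Of 15 tested genes that cut or modify secreted precursors, 2 were higher in SHR and 13 did not pass, with a median of −0.02. Furin, the convertase that cuts at paired basic residues, rose by 0.48 ± 0.11 (SE; limma adjusted p = 0.0329). Cpe, a carboxypeptidase that trims the cut ends, rose by 0.60 ± 0.11 (SE; limma adjusted p = 0.00778). Of 16 tested genes for peptidases, opioid peptides and receptors, 1 was higher and 15 did not pass, with a median of 0.00. The higher gene was Ace, the angiotensin-converting enzyme, which is not among the peptidases named above as inhibited by sialorphin or opiorphin. Ace was at 0.35 in SHR and −0.17 in WKY, a difference of 0.52 ± 0.10 (SE; limma adjusted p = 0.0134). Mme, the gene of neprilysin, differed by −0.01 ± 0.20, Anpep, the gene of aminopeptidase N, by −0.24 ± 0.10, and the enkephalin precursor gene Penk by −0.24 ± 0.09 (SE), none past the threshold.

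Markers of gland cells stand beside these results. Of 9 tested acinar markers 2 were lower in SHR, against 2.85% of all genes, and 7 did not pass, with a median of 0.23. The 2 were Smgc and Cyss, both secretory genes of the submandibular gland, with differences of −4.10 ± 0.35 and −4.06 ± 0.34 (SE; limma adjusted p = 2.3e-05 for each). The mean log2 level of the acinar list was 2.17 to 2.52 in SHR and 2.82 to 3.24 in WKY. Without Smgc and Cyss it was 3.36 to 3.83 in SHR and 3.03 to 3.52 in WKY. Of those 7 markers, 6 had a positive difference, the largest 0.63 ± 0.18 for Pip and 0.38 ± 0.18 (SE) for Aqp5. The other, Chrm1, differed by −0.60 ± 0.20 (SE). Pip is among the 100 brightest genes, which had a median difference of 0.21. Of 10 granular duct markers 0 passed, with a median of −0.15; Klk1c12 and Egf differed by −1.86 ± 0.84 and −0.96 ± 0.74 (SE). The duct list stood at 3.52 to 5.96 in SHR and 5.54 to 5.74 in WKY, and SHR 3-3 was 2.17 below the other SHR arrays. Without SHR 3-3 the SHR range was 5.51 to 5.96, and the differences were −0.84 for Klk1c12 and −0.10 for Egf. Klk1 and Klk1c10 of the same list differed by 0.27 and 0.24 with that array and by 0.34 and 0.80 without it.

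Lists of parotid and sublingual markers were read too, since those glands lie against the submandibular gland. Of 3 parotid markers 0 passed, with a list mean of 1.73 to 2.10 in SHR and 1.45 to 2.25 in WKY. Car6, the secreted carbonic anhydrase, differed by 0.54 ± 0.16, and Dnase1 by −0.25 ± 0.13 (SE). The level of the parotid mean rests largely on Car6, at 8.41 in SHR and 7.87 in WKY. Which gland the Car6 RNA came from was not tested, so this mean cannot by itself show parotid tissue. Of 4 sublingual markers 0 passed, with a list mean of −2.27 to −1.62 in SHR and −2.16 to −1.12 in WKY. Bpifb2 stood at 1.38 in SHR 3-1 and 2.59 in WKY 4-2, and between −1.76 and −0.19 in the other 8 arrays. Without it the list mean was −2.63 to −2.21 in SHR and −2.35 to −2.12 in WKY. WKY 4-2 was also the highest array for Prb3, 0.51 above the other WKY arrays. Cst5 differed by −0.38 ± 0.13 and Tff2 by −0.15 ± 0.11 (SE). Amy1a of the parotid list and Muc19 and Muc5b of the sublingual list, which are defining markers, had no tested probe. Every marker tested in these 4 lists was well above background on all 10 arrays. Levels of different probes are not comparable on these arrays, and the part of other cell types in the members' differences was not tested.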

How the data were processed

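Total RNA of 10 glands was labelled with Cy3 and hybridised to 1-colour arrays, per the labels' protocols. The deposited processed signal is an intensity that Agilent Feature Extraction 11.0.1.1 had corrected for background and spatial trend, per the file headers. The authors' deposited table holds log2 values with equal quantiles in all columns, and no source used here says how it was made. Scanner flags for background, saturation and outliers are 0 or 1, per the file headers.

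Each array's log2 intensity was reduced by its 75th percentile. Outlier spots were left out, spots of a probe were averaged, and a probe was kept where it was well above background on 5 or more of the 10 arrays (29266 of 30367). Gene symbols came from RefSeq accessions (assembly GRCr8), for 18005 probes, and the brightest kept probe stood for a gene. SHR was compared with WKY in limma (lmFit, eBayes, no covariates, two-sided), with Benjamini-Hochberg adjustment over 14711 genes and a threshold of 0.05; 641 genes passed, 222 higher and 419 lower in SHR. Beside the members, the text names up to 5 genes of each list that passed (otherwise the 2 largest differences), the 3 tested neighbours on each side and the 3 genes with the most similar deviations, of which some neighbours are counted without values. Prr4, Adrb1, Mme, Anpep, Penk, Pip, Aqp5, Klk1, Klk1c10 and Bpifb2 were added for their roles after their values were seen. Chrm1 was added after them, for its opposite sign among the acinar markers that did not pass. A gene counted among those that passed in a list is not reported here by name. Members and lists were chosen with earlier results of these data known. Of simulated differences over 14711 genes for SHR minus WKY, 48% were recovered at 0.5 and 92% at 1. The number of arrays limits the precision, and p-values measure the spread between these 10 rats. Alternatives changed the background correction, normalization, filter, probe summary, variance model or slide term, or left out 1 array. The plan assumed a mean signal for normexp (offset 50); the median signal was used. The fits ran in limma 3.58.1 under R 4.3.3 with data.table (1.17.8), promoters were aligned with Biopython 1.88 under Python 3.11.15, and plots used matplotlib 3.10.9.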

Additional observations from a re-analysis of the deposited data

Results flagged for a closer look

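The level of Prh1 in SHR 3-3 was 8.78, far from the other 4 SHR arrays, of which the nearest was at 8.04. Its gap to them was large for the range of 5 values by Dixon's criterion, which chance meets in about 1 in 20 groups; 1 of the 12 groups of member values met it. Without SHR 3-3 the strain difference of Prh1 was 0.27 and did not pass.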

How the results depend on the processing

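Of 26 alternatives, Prpmp5 kept its direction and its call in 25, with differences from −1.86 to −1.29, and lost the call with slide as a block. Prb3 kept its direction in all 26 and its call in 23, the exceptions being normexp, slide as a block and slide 2 alone; Oprpn kept its direction in all 26 and its call in 12. The fit within slide 2 assumes that its lone SHR array varies like the WKY arrays, so its calls, kept or lost, say little. With slide as a block the strain difference is that of slide 2, so those calls depend on the same SHR array. The members that passed numbered 1 with normexp and quantile normalization, 0 with slide as a block, 5 with slide as a random effect, 1 within slide 2 alone and 4 with the leading title number as a random block, against 3. Over all genes, 44 passed with slide as a block, 3451 with slide as a random effect, 52 within slide 2 alone and 1779 with the title number as a random block, against 641. The estimated correlation within slides was −0.19 and within title numbers −0.16, and a negative value lowers the error of a strain difference in such a fit. Leaving out 1 array gave 343 to 724 genes (371 without WKY 1-2, 343 without WKY 1-3 and 416 without WKY 4-1) and 2 to 3 members. Smr3b turned negative at −0.0999 with normexp and at −0.1152 under quantile normalization and in the authors' values. With slide as a random effect Prh1 (0.52, limma adjusted p = 0.0131) and Smr3b (0.40, limma adjusted p = 0.0161) passed, and with the title number as a random block Smr3a did (0.44, limma adjusted p = 0.0494). The share of calls that were lower in SHR was 65.4%, against 55.6% with normexp, 54.5% under quantile normalization, 53.5% with the median, 50.5% in the authors' values and 58.5% under cyclic loess, which was chosen after seeing the data. No paired analysis was possible because the strains share no title number that names a pair. Limits are the 3 slides, of which 1 holds both strains with a single SHR array, the dim signal of Prb3, and the place of Oprpn at the top of the signal range.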
